A study of Arabidopsis thaliana with 12 samples.

Results

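The response described here is the difference between steroid-treated and mock-treated inflorescence tips of Arabidopsis thaliana 3 days after treatment. Its members are the 4 samples whose titles give steroid or mock and day 3, of the 12 samples in the series. Both groups carried the same genotype: they carried ap1-1 and cal-1, each homozygous, and expressed 35S:AGGR, a fusion of the floral regulator AGAMOUS to the rat glucocorticoid receptor. Steroid tips (n = 2) received 10 µM dexamethasone in 0.015% Silwet L-77, a wetting agent, with the ethanol of the stock solution. Mock tips (n = 2) received 0.1% ethanol and the same Silwet. Growth was at 18 °C in a cycle of 16 h light and 8 h darkness, and plant age is not given in the sources used here. The other 8 samples are steroid and mock tips of the same genotype on days 1 and 7, again 2 of each, and they serve below as a comparison in time. Per the series design, the 2 samples of a group were independent.

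AGAMOUS is a MADS-domain transcription factor that specifies stamens and carpels and ends the growth of the floral meristem. Plants without APETALA1 and CAULIFLOWER form heads of proliferating meristems in place of flowers, so their tips are rich in meristem tissue. A protein joined to the glucocorticoid receptor stays in the cytoplasm until a steroid such as dexamethasone binds it and lets it enter the nucleus, which makes the start of organ formation synchronous. The 35S promoter is active in most plant cells, so the fusion was not limited to the cells in which AGAMOUS normally acts. Since every treated plant had the fusion, a response to the steroid itself and a response to AGAMOUS cannot be told apart. Tips are mixed tissue, and fewer cells of a type and less RNA per cell cannot be told apart either.

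Each sample was hybridised to 1 Affymetrix array. Signals were scaled so that every array had the same median, 24.8, and differences are given as log2 of the scaled signal plus an offset of 4.35, which understates differences between weak signals. A probe set, the group of probes that stands for a transcript, was tested if it was not dim on nearly all arrays, which left 16511 of 22746. It was called if its adjusted p in limma was under 0.05. Before scaling, the day 3 array medians ran from 20.1 to 32.2, against 62.6 to 95.2 on day 7, and the residual SD in log2 had a median of 0.32 on day 3 against 0.13 on day 7. Steroid replicate 2 stands apart from the other day 3 arrays. It was scanned with 3 of the day 1 arrays, whereas both mock arrays and steroid replicate 1 shared a scan, and its GAPDH ratio (the 3' probe set over the 5' one, which rises as RNA degrades) was 15.8 against 6.60 in steroid replicate 1 and 8.36 and 12.2 in the mocks. For UBQ steroid replicate 2 stood apart in the opposite direction, with the lowest such ratio of the 4 arrays, 3.77 against 5.42 to 6.07. For actin its 4.54 lay within the range of 3.45 to 8.66. All 4 day 3 arrays stood above day 7 for GAPDH, where day 7 ran from 1.09 to 1.41, and for UBQ, where it ran from 1.61 to 1.86. For actin the days overlapped, with 4.37 to 6.42 on day 7. The part of this in comparisons of day 3 with day 7 was not tested. AGAMOUS, AP3, PI and CRC, which mark stamen and carpel primordia, have no name in the table of probe sets used here, so the treatment could not be checked through them. Of the markers with a name, the meristem gene CLV3 read 20.1 and 30.2 in mock and 19.5 and 16.8 in steroid tips, and the stamen gene SPL stayed between 1.93 and 3.70 on the 4 arrays, too dim to be tested.

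On day 3 a single named gene and a pair of unnamed probe sets rose with steroid. The named gene, AT3G11000 (probe set 257579_at), read 40.5 and 29.4 in mock and 141 and 131 in steroid tips. Its steroid arrays lay well above its mock arrays and close to each other. The group means were 35.0 ± 7.90 in mock and 136 ± 7.25 in steroid (SD, n = 2 in each), a 3.61-fold rise (log2 1.85, SE 0.29, limma adjusted p = 0.0446). Probe set 260355_at read 12.6 and 1.86 in mock and 159 and 92.7 in steroid tips, so that a signal near the bottom of the scale became one well above the array median. The difference was log2 3.61 (SE 0.58, limma adjusted p = 0.0446). Probe set 251898_at read 1.40 and 2.70 in mock and 98.4 and 36.4 in steroid tips, the larger value again in steroid replicate 1. The difference was log2 3.35 (SE 0.52, limma adjusted p = 0.0446). Since 3 of these 4 mock values are under the offset of 4.35, both sizes depend on it and no fold is given.

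Of the 16511 probe sets limma thus called 3 (0.0182%), with 0 lower. An unadjusted p under 0.05 was found for 501 (3.03%), of which 187 (1.13%) were higher and 314 (1.9%) lower. This split rested on single arrays, with 245 higher and 134 lower without mock replicate 2 and 290 and 1804 without steroid replicate 1. Both steroid arrays lay above both mock arrays at 1727 probe sets (10.5%) and below them at 3306 (20%). The distribution as a whole lay below 0: the median difference over all tested probe sets was -0.12 in log2, and it was 0.00 without steroid replicate 2 and -0.19 without steroid replicate 1. After quantile normalization the median was -0.01 and the counts were 2366 higher and 2360 lower, and the 3 calls stayed. Differences below are therefore read against -0.12. Under a stricter filter on dim probe sets the median was -0.16, so the shift was larger among brighter ones. Lists of bright genes were not given a baseline of their own. Fitted on the 4 day 3 arrays alone limma called 0 (469 with an unadjusted p under 0.05), and it also called 0 without mock replicate 1 or mock replicate 2. Without steroid replicate 1 it called 5, all lower and none of them among the 3 above, and without steroid replicate 2, as within the shared scan, the one call was 251898_at (log2 4.01).

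The 3 probe sets called on day 3 had the same direction on the other days, on other arrays. Those arrays are still not independent of the calls. The fit and the filter on dim probe sets used the arrays of all days, and limma called 0 on the 4 day 3 arrays alone. The part of this in the shared direction was not tested. AT3G11000 had read 30.7 and 26.9 in mock and 107 and 97.7 in steroid tips on day 1, and it read 19.2 and 17.2 against 130 and 116 on day 7. Its steroid signal thus lay within a narrow range over the 3 days. For 260355_at the steroid arrays read 52.1 and 62.8 a day after treatment, then 159 and 92.7, then 648 and 415, while no mock array of any day exceeded 12.6. For 251898_at they read 25.7 and 32.6, then 98.4 and 36.4, then 217 and 229. The differences in log2 were 1.69, 1.85 and 2.50 for AT3G11000, 3.22, 3.61 and 6.39 for 260355_at, and 2.64, 3.35 and 4.66 for 251898_at. Whether the effect itself differed between days was tested for every probe set, and limma called 0 of 16511 for day 3 against day 1 (450 with an unadjusted p under 0.05) and 0 for day 7 against day 3 (714). For 260355_at, day 7 against day 3, the unadjusted p was 0.000353 and limma's adjusted p 0.995.

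**Figure D1:**
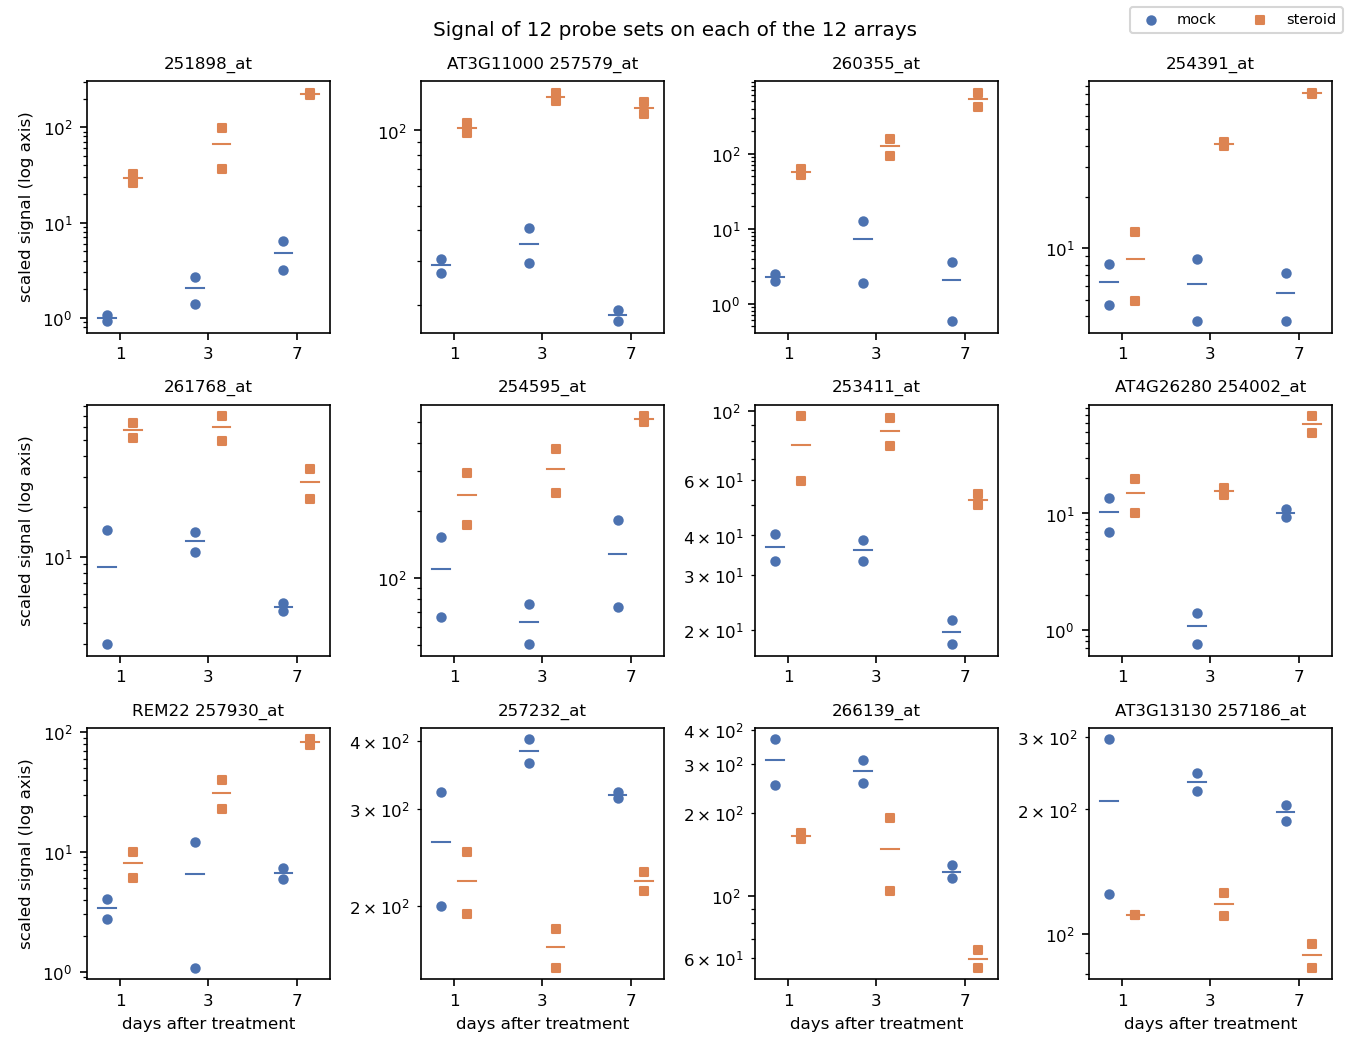
Scaled signal (log axis) of 12 probe sets on days 1, 3 and 7, circles for mock and squares for steroid arrays, with a bar at each group mean (n = 2). Shown are, among probe sets called on day 7 whose day 3 groups are apart in the same direction, the 9 higher and 3 lower ones with the smallest day 3 p; AT3G11000 reads 141 and 131 in steroid against 40.5 and 29.4 in mock tips.

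Day 7 offers a list of probe sets on which to read the day 3 arrays. Neither its steroid nor its mock arrays are shared with day 3. Its calls are still not independent of day 3, since the fit and the filter on dim probe sets used the arrays of all days. The residual variance was thus shared, which can favour probe sets with close day 3 replicates. The 3 probe sets called on day 3 are also on the list. The part of this in the shares below was not tested. The day 7 mock arrays were read in one scan and the steroid arrays in another, so that scan and treatment cannot be separated in the choice of the list. On day 7 limma called 290 probe sets (1.76%), 167 higher (1.01%) and 123 lower (0.745%). Of the 167, 35 (21.0%) had both day 3 steroid arrays above both mock arrays, beside 10.5% of all tested, and 17 (10.2%) had them below, beside 20%. The share above the overall day 3 median was 68.3%. Their median difference on day 3 was 0.03 in log2, beside -0.12 for all tested. An unadjusted p under 0.05 in limma was found for 14 of them in the higher direction and 3 in the lower. The shares over all tested were 1.13% higher and 1.9% lower, and the 3 lower ones are near the latter. The 14 include the 3 probe sets called on day 3. Among the 60 that were at least 2-fold higher on day 7 the median on day 3 was 0.48, 23 (38.3%) did not overlap in the higher direction and 1 (1.67%) in the lower. That median was 0.50, 0.52 and 0.62 without steroid replicate 1, steroid replicate 2 and mock replicate 1, and 0.22 without mock replicate 2. Of the 123 called lower on day 7, 46 (37.4%) had both steroid arrays below both mock arrays on day 3 and 5 (4.07%) above, with a median of -0.26. After quantile normalization these shares were 24.4% and 8.94%, against 14.3% each way over all tested.

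**Figure D2:**
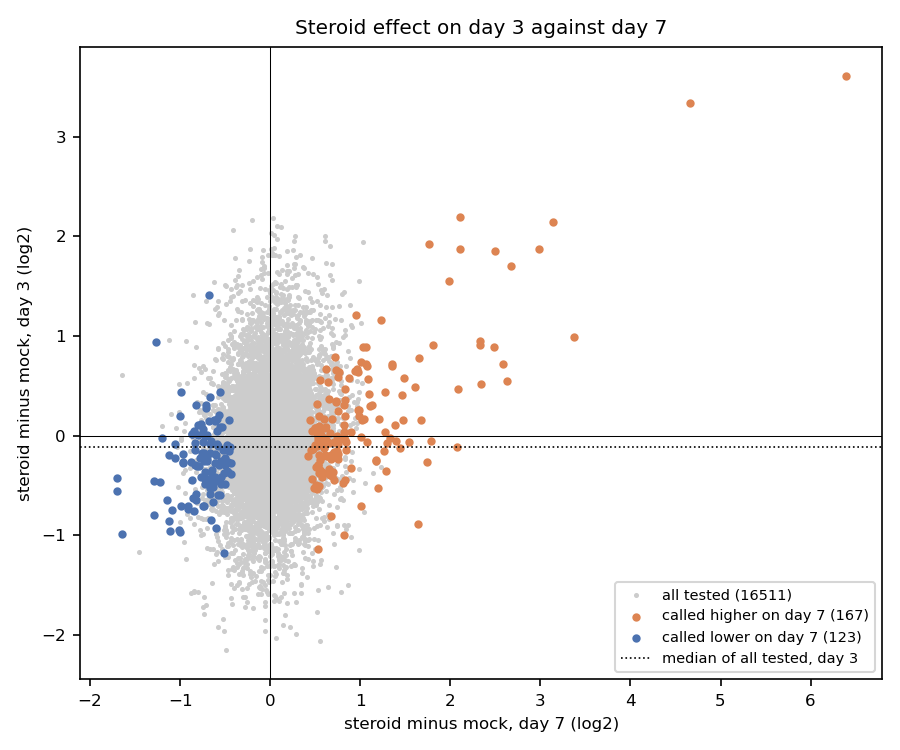
Steroid minus mock difference (log2) on day 7 (horizontal) against day 3 (vertical) for the 16511 tested probe sets, with the 167 called higher on day 7 in orange and the 123 called lower in blue. The dotted line is the day 3 median of all tested probe sets, -0.12. The orange points at the far right lie above that line, whereas most with a small day 7 difference straddle it.

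Several of the large day 7 genes were already apart on day 3, although their differences did not pass the test over all probe sets. REM22, of the REM family of B3-domain transcription factors active in reproductive meristems, read 1.08 and 12.03 in mock and 39.7 and 22.9 in steroid tips on day 3. The groups did not overlap, with log2 1.88 (SE 0.58, unadjusted p = 0.00451, limma adjusted p = 0.999). On day 7 the difference was 2.98 and was called. AT1G47610 read 2.70 and 14.5 in mock and 27.1 and 40.3 in steroid tips (log2 1.70 on day 3 and 2.68, called, on day 7). AT4G26280 read 0.755 and 1.40 against 14.5 and 16.5, and its steroid arrays remained below the array median of 24.8 (log2 1.87, and 2.11 on day 7). AT3G19550 read 55.0 and 106 against 109 and 195, with the lower steroid value just above the higher mock value (log2 0.89, and 2.49 on day 7). AT1G02190 read 22.1 and 19.3 against 37.2 and 52.1 (log2 0.95, and 2.33 on day 7).

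Unnamed probe sets among the day 7 calls showed the same arrangement, in part at a high signal. Probe set 254595_at read 76.4 and 50.2 in mock and 376 and 239 in steroid tips on day 3. Among unnamed probe sets that were bright and did not overlap, only 260355_at and 251898_at had larger differences (log2 2.20, SE 0.61, unadjusted p = 0.00225). Its day 1 groups did not overlap either, at 152 and 66.5 against 296 and 173. Probe set 254391_at read 8.63 and 3.73 against 39.9 and 42.2 on day 3 (log2 2.15), whereas on day 1 its steroid arrays, 12.5 and 4.88, overlapped the mock values of 4.62 and 8.11 (log2 0.24). Probe set 261768_at read 14.02 and 10.7 against 49.6 and 69.7, and its difference was of like size on the 3 days, at log2 2.38, 1.93 and 1.77. Probe set 253411_at read 38.7 and 33.2 against 77.5 and 94.9 (log2 1.16), and 246072_at read 94.9 and 94.8 against 240 and 137 (log2 0.91, and 2.33 on day 7).

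Probe sets called lower on day 7 include some that were already apart on day 3. Probe set 257232_at, unnamed here, read 402 and 365 in mock and 181 and 154 in steroid tips on day 3 (log2 -1.18, SE 0.26, unadjusted p = 0.000313, limma adjusted p = 0.999), and -0.52, called, on day 7. Its steroid level was under the mock level by more than the spread of either pair. Probe set 266139_at read 311 and 257 against 193 and 105 (log2 -0.97, and -0.999 on day 7). AT3G13130 read 245 and 222 against 110 and 126 (log2 -0.96, and -1.11 on day 7). Both were also lower on day 1, by log2 -0.87 and -0.77, where for AT3G13130 one mock array, at 124, lay near the steroid arrays, 111 and 111. GH3.17, an enzyme that joins auxin to amino acids, read 74.6 and 63.7 in mock and 40.7 and 32.6 in steroid tips. Its groups did not overlap on any of the 3 days, with log2 -0.77 on day 1, -0.85 on day 3 (unadjusted p = 0.0215) and -0.66, called, on day 7. AT3G07270 read 49.6 and 47.2 against 19.9 and 27.5 (log2 -0.92). AOP3, of the glucosinolate pathway, read 128 and 137 against 65.0 and 102 (log2 -0.67). Most probe sets called on day 7 were not apart in the same direction on day 3, where 35 of the 167 higher and 46 of the 123 lower ones were. Of the 167, 17 were apart the other way. Among these 17, 252849_at, called higher on day 7 (log2 0.53), read 153 and 181 in mock and 68.4 and 78.6 in steroid tips on day 3 (log2 -1.14). These unnamed probe sets, with 254595_at and the others above, were singled out after their values were seen.

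The largest named differences of day 3 itself were mostly of another kind. The 15 named probe sets with the largest higher differences, among those whose groups did not overlap and whose steroid arrays both exceeded the array median, ran from log2 1.34 to 2.07. Of these 15, 13 had an unadjusted p under 0.05 in limma, beside 3.03% of all tested. A choice by size and lack of overlap favours a small p, so this count is no separate result. AT3G11000 was the called one. Most of the others rested on weak mock signals beside steroid signals between about the array median and a little above it. AT1G49730 read 2.48 and 6.71 in mock and 27.2 and 26.3 in steroid tips (log2 1.84). AT2G13350 read 12.5 and 7.18 against 49.8 and 34.7 (log2 1.72). SWEET13, a sugar transporter, read 0.863 and 22.0 against 27.9 and 27.1 (log2 1.44), so that one mock array came close to the steroid arrays. The same held for AT5G60190, at 2.48 and 26.2 against 34.5 and 37.6 (log2 1.48), and AT3G56870, at 36.98 and 2.98 against 45.5 and 37.1 (log2 1.39). Of brighter genes, psaI, which encodes a small subunit of photosystem I in the plastid genome, read 54.0 and 40.6 against 128 and 135 (log2 1.41). The plastid ribosomal protein gene rps16 had the largest value of the 15, at 10.5 and 5.59 against 30.3 and 70.6 (log2 2.07, SE 0.56, unadjusted p = 0.00167). On day 7 the median of these 15 was 0.03, and 3 were called: AT3G11000 and AT1G47610 higher and psaI lower, at log2 -0.68. On day 1 their median was 0.27.

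The 15 lower probe sets ran from log2 -2.03 to -1.33, and 14 had an unadjusted p under 0.05, which the choice favours here too. The choice required both mock arrays to exceed the array median, and in each of the 15 at least one steroid array read 9.87 or less. AT1G32950 read 25.9 and 27.0 in mock and 2.08 and 4.44 in steroid tips (log2 -2.03, SE 0.63, unadjusted p = 0.00503). AT5G02650 read 29.4 and 25.9 against 2.70 and 5.68 (log2 -1.93), and AT3G12930 read 26.7 and 31.1 against 4.78 and 6.66 (log2 -1.73). These 3 genes were low in both steroid replicates. By contrast THX, thioredoxin X of the plastid, read 43.1 and 30.3 against 25.4 and 1.48 (log2 -1.62), and AT1G18810 read 45.2 and 29.7 against 18.9 and 1.73 (log2 -1.79), so that steroid replicate 2 carried most of the difference. AT5G10770 read 29.5 and 27.3 against 0.924 and 14.6 (log2 -1.71), with the lowest value in steroid replicate 1. The brightest of the 15, AT4G28740, read 51.0 and 49.8 against 28.4 and 8.51 (log2 -1.41). On day 7 the median of these 15 was -0.06 and 0 were called, and on day 1 it was 0.09.

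**Figure D3:**
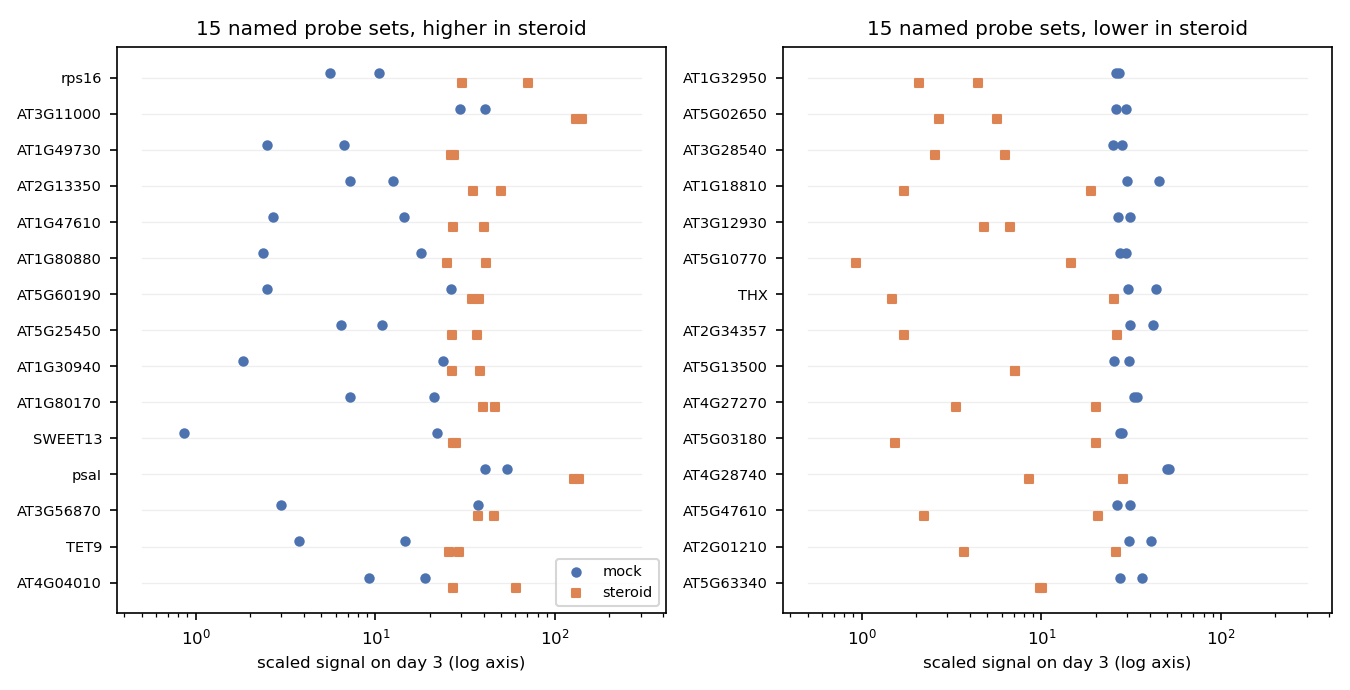
Scaled signal on day 3 (log axis) of the 15 named probe sets with the largest higher (left) and lower (right) differences, circles for the 2 mock and squares for the 2 steroid arrays. Groups do not overlap in any row, as the choice required; AT3G11000 and psaI are the rows whose steroid arrays both exceed 100, and in the right panel the steroid arrays of AT1G32950 read 2.08 and 4.44 against 25.9 and 27.0 in mock tips.

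Among gene lists that bear on stamen and carpel formation, limma called 0 members on day 3. Beside each list median below, brackets give its range when each of the 4 day 3 arrays was left out in turn. Of 10 meristem and inflorescence regulators with a name, 9 were tested. Their median was -0.30 (-0.34 to -0.12), with 2 above 0 and 2 above the overall median. Of the 9, 3 had both steroid arrays below both mock arrays, beside 20% of all tested probe sets. AGL72, a MADS-domain gene close to the flowering gene SOC1, read 60.9 and 52.2 in mock and 41.1 and 29.2 in steroid tips (log2 -0.64, unadjusted p = 0.101), and it was at -0.67 on day 1 and -0.52 on day 7. Its relative AGL71 read 203 and 283 against 182 and 208, and the groups overlapped (log2 -0.30). PUCHI, an AP2-type factor of floral meristem fate, read 62.0 and 55.8 against 43.9 and 42.7 (log2 -0.41). AGL42, at 340 and 252 against 261 and 240, had log2 -0.22, but 0.03 after quantile normalization. The inflorescence MADS gene AGL24 read 206 and 134 against 168 and 117 (log2 -0.24), and its sign turned without mock replicate 1 (0.06) or steroid replicate 2 (0.01).

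Of 7 named stamen and anther genes 3 were tested, with a median of 0.49 (-0.07 to 0.61), whose sign turned without mock replicate 2. EMS1, a receptor kinase needed to form the tapetum of the anther, read 81.2 and 79.9 in mock and 106 and 125 in steroid tips, without overlap (log2 0.49, unadjusted p = 0.229). NUB, whose zinc finger product acts in the growth of anthers and carpels, read 17.6 and 1.31 against 21.3 and 12.7, with overlap (log2 0.91, but -0.07 without mock replicate 2), and it was called higher on day 7 at log2 1.80. ROXY1, a glutaredoxin of petal and anther development, read 23.8 and 9.79 against 8.63 and 13.4 (log2 -0.39, but 0.10 without mock replicate 1). Of 10 named carpel and fruit genes 7 were tested, with a median of 0.09 (-0.07 to 0.22). NGA4 and NGA2, B3-domain factors of style formation, had log2 1.02 and 0.59, and the mock arrays of NGA4, 13.8 and 1.68, lay below its steroid arrays, 15.02 and 18.8. The carpel margin regulator SPT was bright and close between groups, at 176 and 147 against 145 and 131 (log2 -0.21), and ALC, which acts in the fruit valve margin, was brighter, at 691 and 774 against 740 and 819 (log2 0.09). INO, a YABBY gene of the outer ovule integument, read 28.5 and 26.9 against 21.8 and 24.2 (log2 -0.23).

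The REM family was uneven on day 3. Of 5 REM genes found by symbol or synonym, REM22 had the log2 of 1.88 given above and AT2G35310, listed with the synonym REM23, read 52.7 and 75.9 in mock and 105 and 88.7 in steroid tips (log2 0.58, unadjusted p = 0.0758). Both were called higher on day 7. AT5G09780 read 19.9 and 18.9 against 16.3 and 5.92 (log2 -0.71), although on day 7 it was called higher at 1.01. AT2G16210 read 36.98 and 20.8 against 31.4 and 19.0 (log2 -0.16, and 1.27, called, on day 7), and AT4G31615 had log2 0.07. The median of the 5 was 0.07 on day 3 (-0.11 to 0.25) and 1.27 on day 7. Of 4 organ polarity genes 1 was higher and 3 were lower without overlap, beside 10.5% and 20% of all tested probe sets. The differences were small, with a median of -0.20 (-0.24 to -0.16) beside -0.12 for all tested. YAB3 read 49.4 and 48.0 against 34.7 and 42.6 (log2 -0.31) and YAB5 23.8 and 13.1 against 26.3 and 23.9 (log2 0.41).

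**Figure D4:**
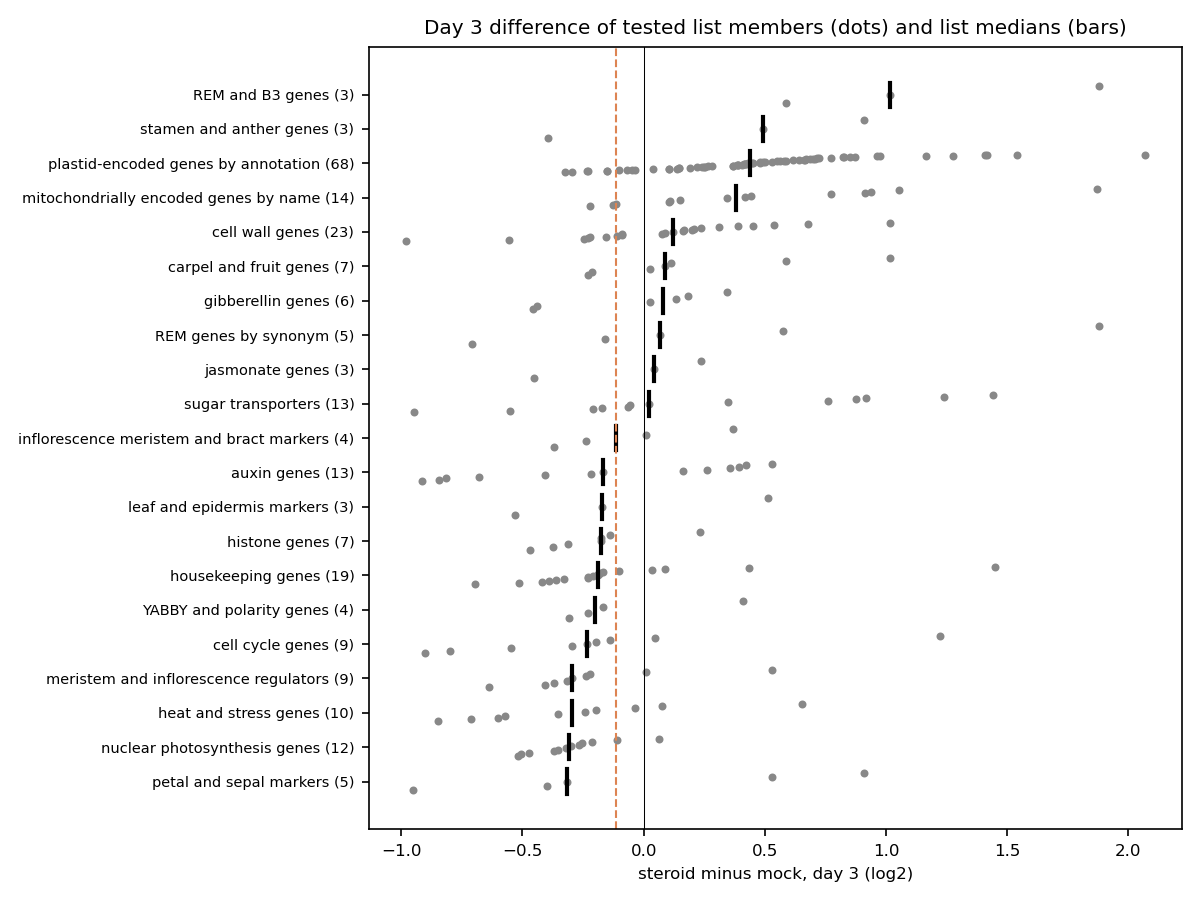
Steroid minus mock difference on day 3 (log2) of the tested members (dots) of each gene list with at least 3 of them, with the list median as a bar and the number tested in brackets. The dashed line is the median of all tested probe sets, -0.12. The bars of plastid-encoded (0.44) and mitochondrially encoded genes (0.38) lie to its right and that of nuclear photosynthesis genes (-0.31) to its left.

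Hormone genes with a name were few. Of 13 tested auxin genes the median was -0.17 (-0.24 to 0.21), with the sign turned without mock replicate 1, and GH3.17, described above, was the one with an unadjusted p under 0.05. The Aux/IAA repressor gene IAA20 read 19.4 and 19.95 in mock and 18.4 and 3.82 in steroid tips (log2 -0.82), so that a single steroid array was low, and IAA34 read 8.30 and 17.1 against 2.08 and 7.53 (log2 -0.91). PID2, a kinase gene of the PINOID family, read 17.04 and 21.6 against 22.6 and 3.70 (log2 -0.68, but 0.19 without steroid replicate 2). Of 6 tested gibberellin genes the median was 0.08 (-0.23 to 0.06). SLY1 and SLY2, F-box proteins that target the DELLA repressors of gibberellin response, had log2 -0.44 and -0.45 without overlap, at 57.0 and 55.2 against 51.8 and 31.1 for SLY1 and at 25.7 and 28.6 against 16.6 and 20.9 for SLY2. The receptor gene GID1C read 16.3 and 14.9 against 18.9 and 23.1 (log2 0.34). GID1B, another receptor, read 3.13 and 31.2 against 8.63 and 22.1 (log2 0.18), and the spread between its mock arrays covered both steroid values. The cytokinin response regulator ARR15 was dim, at 0.863 and 15.01 against 12.4 and 11.0 (log2 0.67, but -0.27 without mock replicate 1). Of 3 jasmonate genes the median was 0.04 (-0.27 to 0.35), and the synthesis gene OPCL1 read 56.2 and 72.6 against 63.1 and 32.6 (log2 -0.45).

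Plastid-encoded genes lay mostly above 0. Of 69 plastid-encoded genes with a name 68 were tested, and limma called 0. The median was 0.44, with 58 above 0 and 62 above the overall median. Both steroid arrays lay above both mock arrays for 22 (32.4%), beside 10.5% of all tested, and below them for 1 (1.47%), beside 20%. An unadjusted p under 0.05 in limma was found for 9, beside 3.03%. Besides rps16 and psaI, the ribosomal protein genes rpl22 (32.3 and 29.6 in mock, 68.5 and 51.3 in steroid tips, log2 0.85) and rpl33 (103 and 75.9 against 141 and 156, log2 0.72) were among these. The median moved with single arrays, from 0.23 and 0.61 without steroid replicates 1 and 2 to 0.87 and 0.03 without mock replicates 1 and 2. The summed plastid signal was 18496 and 11056 in mock and 17647 and 15576 in steroid tips, so mock replicate 2 was low and mock replicate 1 was the highest of the 4. Mock replicate 2 also had the higher GAPDH ratio of the mock pair, 12.2 against 8.36, and the higher actin ratio, 8.66 against 5.55, but the lower UBQ ratio, 5.42 against 6.07, and the part of RNA quality in these values was not tested. The list stood at 0.35 on day 1 and -0.23 on day 7.

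Mitochondrially encoded genes showed the same arrangement of arrays. Of 14 tested the median was 0.38, with 11 above 0 and 12 above the overall median. Without overlap 5 (35.7%) were higher and 0 lower, beside 10.5% and 20% of all tested. The summed signal was 480 and 249 in mock and 518 and 413 in steroid tips, with mock replicate 2 again the lowest, and without that array the median was -0.19. For nad5, a subunit of respiratory complex I, the mock arrays read 2.26 and 2.52 and the steroid arrays 29.8 and 13.4 (log2 1.87, unadjusted p = 0.00448). For cox2, of cytochrome c oxidase, they read 19.2 and 12.3 against 26.3 and 50.8 (log2 1.05). The cytochrome c biogenesis genes ccb382 and ccb206 had log2 0.94 and 0.91, both without overlap.

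Nuclear genes of photosynthesis, which also mark green tissue, lay on the other side. The median of 12 was -0.31 (-0.41 to -0.22), with 1 above 0 and 2 above the overall median. Both steroid arrays lay below both mock arrays for 5 (41.7%), beside 20% of all tested. PSBY, of photosystem II, read 322 and 344 in mock and 275 and 197 in steroid tips (log2 -0.51, unadjusted p = 0.0537). PSAN, of photosystem I, read 236 and 187 against 149 and 141 (log2 -0.52). SBPASE, of the Calvin cycle, read 487 and 500 against 407 and 356 (log2 -0.37), and the antenna gene LHCB4.3 117 and 183 against 120 and 90.6 (log2 -0.47). With quantile normalization the median was -0.11, beside -0.01 for all tested. Then 2 of 12 (16.7%) were lower without overlap, near the 14.3% of all tested. RCA, the activase of Rubisco, differed little, at 33.3 and 36.3 against 37.7 and 26.9 (log2 -0.11).

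**Figure D5:**
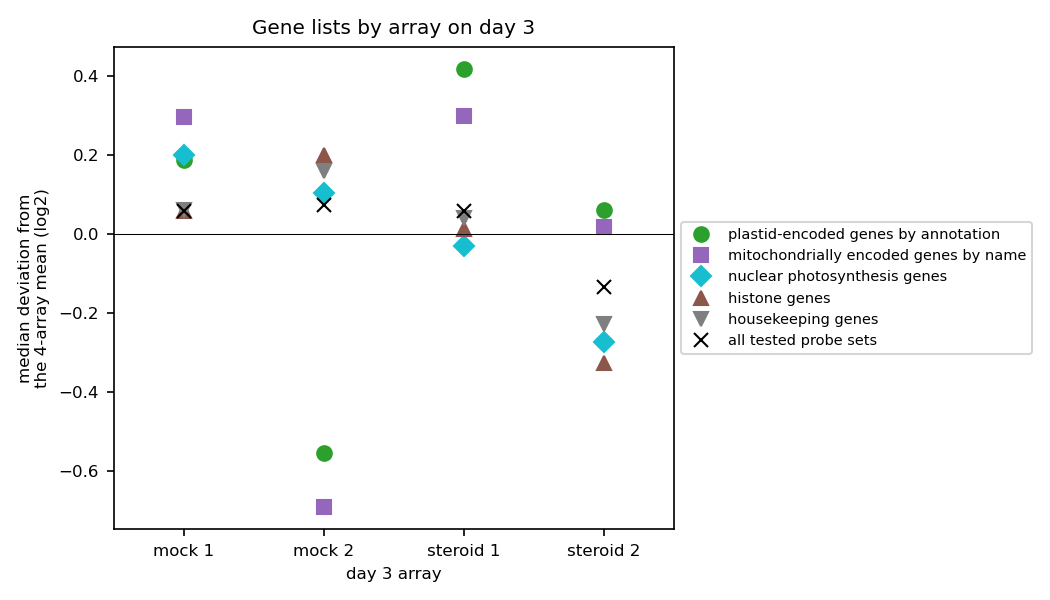
Median over list members of each array's deviation (log2) from the mean of the 4 day 3 arrays, for 5 gene lists and for all tested probe sets. Mock replicate 2 stands lowest for plastid-encoded (-0.55) and mitochondrially encoded genes (-0.69), and steroid replicate 2 lowest for histone (-0.33), nuclear photosynthesis (-0.27) and housekeeping genes (-0.23) and for all tested probe sets (-0.14).

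Genes of cell division were uneven. Of 9 cell cycle genes the median was -0.24, but 0.10 without steroid replicate 2 and -0.61 without steroid replicate 1. CDC27a, a subunit of the anaphase-promoting complex, read 21.7 and 2.42 in mock and 28.7 and 24.7 in steroid tips (log2 1.22, unadjusted p = 0.0485). SIM, an inhibitor of cyclin-dependent kinases, read 27.4 and 26.6 against 15.2 and 12.2 (log2 -0.80). The mitotic kinase gene AUR2 read 115 and 229 against 121 and 99.4, with overlap (log2 -0.55), and the spindle checkpoint gene BUBR1 36.4 and 35.4 against 38.7 and 6.42 (log2 -0.90, but 0.10 without steroid replicate 2). Of 7 histone genes the median was -0.18 (-0.51 to -0.07) and 4 were lower without overlap, beside 20% of all tested, a count that was 0 after quantile normalization. The H2B gene HTB1 read 350 and 449 against 304 and 267 (log2 -0.47, unadjusted p = 0.0745). Housekeeping genes, 19 of them, had a median of -0.19 (-0.34 to -0.08), close to that of all tested probe sets. The ubiquitin-conjugating enzyme gene UBC20 read 324 and 285 against 281 and 123 (log2 -0.70), with the low value in steroid replicate 2.

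Sugar transport and wall genes were mixed. Of 13 tested sugar transporters, all SWEET genes, 4 were higher and 2 lower without overlap, beside 10.5% and 20% of all tested. Their median was 0.02, but 0.22 to 0.62 with any one day 3 array left out. Besides SWEET13, SWEET4 read 6.47 and 15.2 in mock and 22.8 and 39.1 in steroid tips (log2 1.24, unadjusted p = 0.0470). SWEET11, which exports sucrose from leaf phloem parenchyma, read 99.3 and 269 against 73.2 and 94.1 (log2 -0.95), and it was called lower on day 7, at -1.02. SWEET17 read 84.1 and 62.4 against 59.998 and 38.2 (log2 -0.55). Of 23 tested wall genes the median was 0.12 (-0.05 to 0.28), with 3 higher and 2 lower without overlap, a share near or under that of all tested. EXPA9, an expansin, read 10.5 and 13.6 against 19.3 and 41.7 (log2 1.02), and XTH33, a xyloglucan enzyme, 23.7 and 21.4 against 6.62 and 12.6 (log2 -0.98). CSLC6, of the cellulose-synthase-like family, read 32.7 and 32.8 against 15.7 and 27.4 (log2 -0.56). Of 10 heat and stress genes the median was -0.30 (-0.62 to -0.10), and 5 were lower and 1 higher without overlap, beside 20% and 10.5%. RD2 read 158 and 172 against 127 and 89.9 (log2 -0.60, unadjusted p = 0.0284), and the cold-regulated gene COR27 76.7 and 77.8 against 51.0 and 49.97 (log2 -0.57).

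Of the markers of other tissues that tips could hold, limma called 0 on day 3. Of 3 leaf and epidermis genes the median was -0.17 (-0.73 to 0.44), and the summed signal of the 4 named members was 55.3 and 57.9 in mock and 36.2 and 71.8 in steroid tips. The trichome repressor TRY had log2 0.51 and the stomatal gene FAMA -0.53. Of 5 petal and sepal genes the median was -0.31 (-0.56 to 0.22), with summed signals of 113 and 157 against 93.9 and 138, and the petal growth gene BPEp read 20.3 and 20.4 against 18.3 and 2.84 (log2 -0.95). In both lists the second replicate of each group had the larger sum. The vascular list held SWEET11 and the xylan synthesis gene GUT2, at 50.4 and 34.1 against 42.0 and 50.7 (log2 0.14). The inflorescence meristem and bract list had a median of -0.12 (-0.13 to 0.0079) over 4: LAS, a regulator of axillary meristems, at log2 0.37, CLV3 at -0.37, AGL24 at -0.24 and FD, the partner of the flowering signal FT, at 0.01. The 1 named pollen and tapetum marker read between 0.839 and 1.54 on the 4 arrays and was not tested.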

How the data were processed

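The authors deposited a table of linear signal intensity, with 1 value for each probe set on each array; per the submitters' processing notes the authors used MAS5, whose settings are not given in the sources used here. The deposited scanner files were used only for the scan each array belongs to (other values). Besides 64 controls there were 22746 probe sets; 13513 have 1 name in GEO's platform annotation, which can be old, 503 several and 8730 none. Of the 13513, 13436 were matched to the RefSeq annotation TAIR10.1, and the others keep the table's name.

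Each array was scaled to a median of 24.8, an offset of 4.35 was added (the arrays' 20th percentiles have this median), and log2 taken. Probe sets with at least 2 of 12 arrays above their own 40th percentile were tested: 16511, of which 9232 have a single name. limma 3.58.1 in R 4.3.3 (lmFit with 6 group means and 1 weight per day, eBayes with a variance trend, two-sided) had 6 residual and 11.2 prior degrees of freedom. The weights were 0.528, 0.576 and 3.29 for days 1, 3 and 7, since the spread differed between days. Adjustment was Benjamini-Hochberg over all tested probe sets. An exact permutation test of 2 against 2 cannot give a p under 0.333, so none was used. The number of arrays limits the precision.

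A naming rule chose every probe set called on day 3 and up to 4 tested members per list with the smallest unadjusted p. It also chose the 15 higher and 15 lower single-name probe sets with the largest difference among non-overlapping bright ones. The text describes only some of these, and the rule did not set which. The plot of the largest named differences on day 3 shows all of the 15 higher and 15 lower ones. Where several probe sets carry a gene, the brightest stands for it. AT1G02190, AT3G07270, AT3G13130, AT3G19550, AT4G26280, AT4G31615, ALC, AOP3 and RCA were named after their values were seen. The comparison, its lists and the naming rule were chosen with earlier results of these data known, and the plastid, mitochondrial and REM-synonym lists were added after the names on the array were seen. Of the 28 lists, 5 had no tested member: floral organ identity MADS genes, plastid and mitochondrial genes by locus, and ribosomal protein genes had no name here, and the pollen list's 1 member was too dim. FDH, which is formate dehydrogenase here, and the plastid gene rps3 were taken out of the epidermis and mitochondrial lists after their values were seen. Some results are not reported here. The procedure was tested on simulated data.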

Additional observations from a re-analysis of the deposited data

Results flagged for a closer look

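For 24 of the 106 probe sets chosen by the naming rule, both steroid arrays lay beyond both mock arrays on day 3 in one direction and on another day in the opposite one. The share over all tested probe sets was not worked out, so the count has no background to be read against. Lack of overlap on day 3 was itself a condition for the 15 higher and 15 lower ones. The difference between the days' effects was tested with limma over all probe sets and passed for none of the 24, with adjusted p from 0.733 to 1. Values below are the later day's log2 effect minus the earlier day's.

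From day 1 to day 3 the value was above 0 for nad5 (2.97), AT2G13350 (2.73), AT5G60190 (2.70) and WRKY53 (0.86). It was below 0 for AT5G03180 (-2.20), CSLC6 (-1.84) and SBPASE (-0.88).

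From day 3 to day 7 it was below 0 for several organelle genes: rps16 (-2.49), psaI (-2.09, from 1.41 to -0.68, with the smallest p of the 24, limma adjusted p = 0.733), cox2 (-1.46) and ccb382 (-1.05). The tetraspanin gene TET9 (-2.06) and the gibberellin receptor gene GID1C (-0.59) had values of the same sign. It was above 0 for AT5G02650 (2.15), the REM-synonym gene AT5G09780 (1.72), AT2G01210 (1.504) and IAA34 (1.26). Smaller values above 0 were those of UBC20 (0.91), HTB1 (0.77), CLV3 (0.72), UBC27 (0.61), HTB4 (0.51), SPT (0.41) and PHV (0.30).

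Within a day only psaI, lower, and AT5G09780, higher, were called, both on day 7, and the scans of days 3 and 7 share no array, so the days cannot be told apart from the scans.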

How the results depend on the processing

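The 3 calls of day 3 kept their direction under all 25 alternatives each, with log2 from 1.65 to 2.06 for AT3G11000, 2.89 to 4.34 for 260355_at and 2.68 to 4.01 for 251898_at, but they passed the threshold narrowly, and limma's adjusted p ran from 0.0144 to 0.812 for 251898_at and to 1.00 for the other two. limma called 0 probe sets on day 3 with the offset halved, with no filter on dim probe sets, with a stricter filter (10494 tested), and in fits of the 8 arrays of days 1 and 3 or the 4 of day 3, where 503, 780, 219, 431 and 469 had an unadjusted p under 0.05. It called 1 with a floor in place of the offset (260355_at) and 1 with the scan as a block (251898_at). Leaving out each of the 12 arrays gave 0 to 5 calls: 5 without steroid day 3 replicate 1, 1 without its replicate 2, 3 without either day 7 mock array and 0 for the other 8 arrays. The 5, all lower, were AT5G59250, XPO1B and the unnamed 262850_at, 264150_at and 265936_at. Day 3 against day 1 gave 0 calls throughout except 3 without mock day 1 replicate 2 (AT5G43830, AT4G29030 and AT3G07760), a range of 0 to 3, and day 7 against day 3 gave 0 except 4 without steroid day 3 replicate 1 (AT5G59250, XPO1B, 264150_at and 265936_at), a range of 0 to 4. The cause of these moves was not tested. The split of unadjusted p under 0.05 moved with scaling, from 187 higher and 314 lower to 263 and 282 after quantile normalization and 257 and 258 after centring, and more with single arrays, to 245 and 134 without mock day 3 replicate 2 and 290 and 1804 without steroid day 3 replicate 1.

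The correlation of deviations between same-numbered mock and steroid arrays was 0.124, 0.0996 and 0.0883 on days 1, 3 and 7, so the numbers were not taken to pair the samples. With the replicate block within day, or shared by days 1 and 3, limma called the same 3 probe sets, and 0 for either difference between days. The scan block gives the value without steroid replicate 2, since scan 4 alone holds both day 3 groups.

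Of 2595 values of single probe sets under alternatives, 2516 kept direction and side of the threshold, 48 lost a call and 31 changed sign. The sign changed with quantile normalization for AGL42 (0.0325) and HTB11 (0.0067), and with the scan block for HTB11 (0.15), GID1B (-0.33), PID2 (0.19), BUBR1 (0.10), AGL24 (0.0117), FD (-0.26) and AT2G16210 (0.15). Leaving out 1 array, log2 ran from -0.0691 to 1.89 for NUB, -0.89 to 0.10 for ROXY1, -0.94 to 1.31 for GID1B, -1.55 to 0.19 for PID2, -0.27 to 1.62 for ARR15 and -0.0011 to 0.48 for MYC4. It ran from -0.27 to 0.36 for MYC3, -1.90 to 0.10 for BUBR1, -0.51 to 0.15 for HTB11, -0.78 to 0.44 for SPCH, -1.02 to 0.22 for DFR and -0.12 to 0.39 for GUT2. For AGL24 it ran from -0.54 to 0.0630, for FD from -0.26 to 0.28 and for AT2G16210 from -0.52 to 0.20. Signals near the offset have little power to show a difference, and the cause of these changes was not tested.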

Other observations

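Of all tested probe sets 252849_at had the smallest unadjusted p for a difference between the effects of days 3 and 7: its effect was log2 -1.14 on day 3 and 0.53 on day 7 (unadjusted p = 3.81e-05, limma adjusted p = 0.63). It has no name in the table used here and was picked after its values were seen.

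Of the remaining named genes on the lists, UBC16 was dim in mock tips, at 2.16 and 1.86, and read 8.01 and 20.1 in steroid tips on day 3 (log2 1.45, unadjusted p = 0.0634), the largest difference among the housekeeping genes. The defensin gene PDF2.1 read 12.6 and 10.2 against 2.46 and 6.79 (log2 -0.85), and the transcription factor gene WRKY53 read 10.0 and 9.04 against 12.8 and 23.4 (log2 0.65). The wall gene XTH32 read 62.5 and 85.3 against 87.2 and 108, without overlap (log2 0.39). None of these 4 passed the test.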
